A study of Mus musculus with 12 samples.

Results

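BV-2 cells that had received LPS and NMN together were compared with control BV-2 cells. BV-2 is an immortalised mouse microglial line, LPS (lipopolysaccharide) is a cell wall component of gram-negative bacteria, and NMN (nicotinamide mononucleotide) is a precursor of the coenzyme NAD. The comparison took the 3 libraries labelled LPS+NMN and the 3 labelled Control, 6 of the 12 libraries of the study; the other libraries were 3 with LPS alone and 3 with NMN alone. All 12 carry the same line, and the doses, times and vehicle are not given in the sources used here. Whether libraries of the same group were grown as separate cultures is not stated, and the p-values thus reflect the spread among these samples alone, which may be technical.

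For each library there is a list of transcript events, without read counts, expression levels or depth; it is called a catalogue here. An event is a feature of the assembled transcripts of a gene: a first exon (TSS), a last exon (TTS), an exon that some transcripts skip, a cassette of several exons skipped together, an intron that some transcripts retain, or an exon with alternative ends. The 6 libraries listed 13628 genes and 106733 distinct events, of 14275 genes and 141591 events in all 12, and 11034 genes were listed in all 6. An event was called gained when it was in all 3 LPS+NMN libraries and in no Control library, and lost in the opposite case. A listed gene has at least 2 events, its first and its last exon, so a gene that enters a catalogue moves from 0 to 2 or more. A listed skipped exon means that transcripts with and without the exon were both assembled; its loss does not say which form left.

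LPS is bound by Toll-like receptor 4 at the surface of microglia, which signals through NFkB to inflammatory cytokine genes and through interferon regulatory factors to type I interferon. Interferon then acts back on the cells and switches on antiviral genes, among them Irf7, a transcription factor that amplifies the same response. NMN is converted to NAD, which sirtuins, PARP enzymes and CD38 consume, and the study's title and design text place it with GPX4, an enzyme that detoxifies lipid peroxides and protects against ferroptosis, an iron-dependent form of cell death.

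The labels give the cell type as "macroglia", a word for astrocytes and oligodendrocytes. Of 15 markers of microglia and macrophages, 12 were listed in all 6 libraries, including Aif1, Csf1r, Itgam, Trem2, Tyrobp and Spi1. C1qa, P2ry12 and Cx3cr1 were each missing from some of the 6. Of 9 astrocyte markers 3 were listed at all, and 2 of these, Slc1a2 and Aldoc, were in all 6 libraries. Aqp4, Aldh1l1, Slc1a3, Gja1, S100b and Sox9 were in no library of the comparison. Of 9 oligodendrocyte markers 6 were listed and 3 were in all 6 libraries; of 10 neuron markers 3 were listed and 1 was in all 6.

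The exons below are the coding exons, matched to annotated transcripts, through which the switch of skipped exons is shown for genes of the interferon response and its neighbours. Their skip was listed in every LPS+NMN library and in no Control library. Mx1 and Ifi44 were each missing from a Control library and had only a first and a last exon in the others. For these genes, an unlisted skip in Control does not show that the exon was always kept. The sequences are from GENCODE M21 transcripts on GRCm38, 5′ to 3′ on the strand of the gene, and each matched the listed event in exon length and in the lengths of both flanking introns. In Irf7 exon 6 the capitals are the 96 bases that a shorter annotated form of the exon lacks; both forms were listed as skipped.
Irf7 exon 6 of 10, chr7:141264493-141264655, minus strand: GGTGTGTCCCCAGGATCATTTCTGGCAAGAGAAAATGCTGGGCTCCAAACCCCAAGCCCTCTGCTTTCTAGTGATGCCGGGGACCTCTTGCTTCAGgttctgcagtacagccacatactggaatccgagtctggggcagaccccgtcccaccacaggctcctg
Irf7 exon 5 of 10, chr7:141264725-141264783, minus strand: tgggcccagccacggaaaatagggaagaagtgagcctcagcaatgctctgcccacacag
Mx1 exon 11 of 14, chr16:97452773-97452851, minus strand: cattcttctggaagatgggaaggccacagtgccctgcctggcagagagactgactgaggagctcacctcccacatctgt
Ifi44 exon 7 of 8, chr3:151738223-151738323, minus strand: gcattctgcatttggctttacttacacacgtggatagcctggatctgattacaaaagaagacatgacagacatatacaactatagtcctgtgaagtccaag
Slamf7 exon 5 of 7, chr1:171637297-171637400, minus strand: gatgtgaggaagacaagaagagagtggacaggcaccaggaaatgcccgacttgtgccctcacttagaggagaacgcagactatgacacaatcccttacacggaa

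In the opposite direction, the next exons were listed as skipped in all 3 Control libraries and in no LPS+NMN library. They are shown because they lie in the receptor for LPS, in an activator of MHC class I genes, and in genes of splicing, chromatin and ubiquitin signalling. The exons of both sets were chosen after their values were seen.
Tlr4 exon 2 of 3, chr4:66833894-66834060, plus strand: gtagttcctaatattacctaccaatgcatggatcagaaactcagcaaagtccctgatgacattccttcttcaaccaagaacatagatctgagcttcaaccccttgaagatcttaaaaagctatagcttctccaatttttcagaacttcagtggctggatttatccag
Nlrc5 exon 8 of 49, chr8:94481976-94482065, plus strand: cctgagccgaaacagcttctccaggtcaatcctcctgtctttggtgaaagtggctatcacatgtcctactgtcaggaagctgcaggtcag
Hnrnph1 exon 10 of 14, chr11:50383680-50383739, plus strand: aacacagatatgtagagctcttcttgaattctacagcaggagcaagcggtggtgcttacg
Ezh2 exon 18 of 20, chr6:47531985-47532065, minus strand: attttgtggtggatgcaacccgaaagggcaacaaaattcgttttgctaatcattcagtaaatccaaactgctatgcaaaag
Ube2n exon 3 of 4, chr10:95541638-95541778, plus strand: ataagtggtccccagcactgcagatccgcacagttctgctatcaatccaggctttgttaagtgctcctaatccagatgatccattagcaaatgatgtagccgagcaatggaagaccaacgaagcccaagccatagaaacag

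The Irf7 exons, of 163 and 59 bases, and the exons of Mx1 (79 bases), Ifi44 (101) and Slamf7 (104) are not multiples of 3 in length. Tlr4 exon 2, with 167 bases, is not either, whereas the exons of Nlrc5 (90), Hnrnph1 (60), Ezh2 (81) and Ube2n (141) are. The printed exons were picked, so this contrast between the sets does not describe all switched exons. Over all exactly skipped exons the lengths were multiples of 3 in 37 of 98 gained (37.8%), in 65 of 136 lost (47.8%) and in 5622 of 13180 listed in the 6 libraries (42.7%). Both shares lie within 6 percentage points of that of all listed exons, and no test was made of them.

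At the level of genes, LPS+NMN libraries listed more events than Control libraries for 33 genes (0.283% of the 11671 tested) and fewer for 6 (0.0514%), by limma with Benjamini-Hochberg adjustment at 0.05. At an unadjusted p under 0.05 there were 870 genes (7.45%). Over all tested genes the median difference was 0 on the log2(events + 1) scale, with a higher mean in LPS+NMN for 4773 genes, a lower mean for 5089 and equal means for 1809. Of the 33 genes with more events, 24 were absent from all 3 Control libraries and 9 were listed in both groups; of the 6 with fewer, 2 were absent from all LPS+NMN libraries. The calls were therefore mostly of genes that entered the catalogues. A catalogue of bulk RNA cannot tell fewer cells of a kind from less RNA per cell, and a gene can be missing because it was silent or because too few reads covered it.

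**Figure D1:**
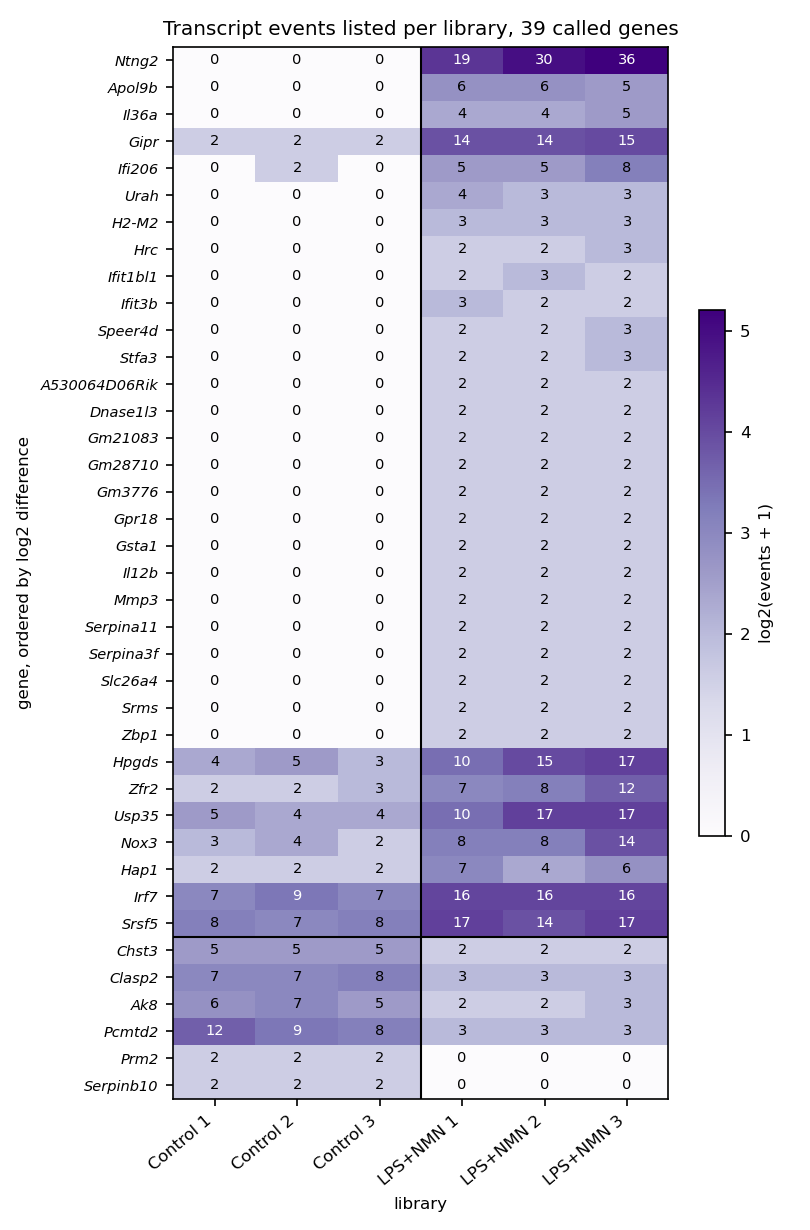
Events listed in each of the 6 compared libraries (columns, 3 per group; the number in each cell) for the 39 genes called by limma, 1 per line in the order of the log2 difference of LPS+NMN from Control, with the shade giving log2(events + 1). The upper 33 genes are darker in LPS+NMN than in Control and the lower 6 lighter; Ntng2, at the top, reached 36 events in an LPS+NMN library and was at 0 in every Control library.

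Ntng2, which encodes the membrane-anchored netrin-G2 of the axon guidance netrins, had the largest difference. It lies at chr2:29194541-29253005 (GRCm38). It was at 0 events in all 3 Control libraries and at 19, 30 and 36 in LPS+NMN, a difference of 4.83 ± 0.23 (SE) on the log2(events + 1) scale (limma, adjusted p = 1.44e-06). The groups did not overlap, and 13 events were gained: 5 first exons, 3 last exons, a skipped exon, 2 cassettes and 2 retained introns. With LPS alone it had 16, 22 and 23 events and with NMN alone 15, 21 and 18, so that no Control library but every treated library listed it. Retained introns made up 6, 8 and 12 of its events in LPS+NMN, against 1, 7 and 6 with LPS and 1, 2 and 2 with NMN.

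Among interferon-induced genes, Apol9b (chr15:77729039-77736382), a member of the apolipoprotein L family, had 0 events in every Control library and 6, 6 and 5 in LPS+NMN. The difference was 2.73 ± 0.18 (limma, adjusted p = 1.78e-05), and LPS alone gave 6, 4 and 4 and NMN alone 4, 6 and 4. Its neighbour and near copy Apol9a, with 2, 0 and 2 events in Control and 4, 4 and 4 in LPS+NMN, did not pass (1.27, adjusted p = 0.235), and transcripts of the pair may be assigned to either gene.

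Ifi206, of the Ifi200 family of DNA-binding interferon-induced proteins, had 0, 2 and 0 events in Control and 5, 5 and 8 in LPS+NMN (2.25 ± 0.38; limma, adjusted p = 0.0259). The 2 groups did not overlap, although Control 2 listed the gene. Ifit3b (chr19:34607970-34613401) and Ifit1bl1, of the family of RNA-binding IFIT proteins, were at 0 in all Control libraries and at 3, 2, 2 and 2, 3, 2 events in LPS+NMN (both 1.72; limma, adjusted p = 0.00676). Zbp1, a sensor of Z-form nucleic acids that can start necroptosis, was at 0 in Control and at 2 in each of the 9 treated libraries (1.58 ± 0.22; limma, adjusted p = 0.00676). The IFIT and Ifi200 genes have close copies in their clusters, so which copy a transcript was given to is uncertain.

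Irf7 (chr7:141262706-141266481) was listed in every library. It had 7, 9 and 7 events in Control and 16 in each LPS+NMN library (0.98 ± 0.14; limma, adjusted p = 0.00676). LPS alone gave 15, 16 and 16 and NMN alone 16, 16 and 15, levels that lie with the LPS+NMN libraries and apart from Control. The number of skipped exons was 1 in each Control library and 5 in each of the 9 treated libraries, and first exons went from 1 to 2. The 7 gained events were the skips of exon 6 in its long and short forms, the skip of exon 5 in its exact and approximate forms, 2 cassettes that span them and 1 first exon. The skips of exons 5 and 6 printed above are thus events that every treated library and no Control library held.

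Cytokine and immune genes among the calls were Il36a, Il12b and H2-M2. Il36a, an interleukin-1 family cytokine, had 0 events in Control and 4, 4 and 5 in LPS+NMN (2.41 ± 0.14; limma, adjusted p = 4.96e-06). Il12b, which encodes the subunit common to interleukin-12 and interleukin-23, was at 0 in Control and at 2 in every treated library (1.58 ± 0.22 by limma, adjusted p = 0.00676). No single event of Il12b was in all 3 LPS+NMN libraries. H2-M2 (chr17:37480851-37483552), a non-classical MHC class I gene, was at 0 in Control and at 3 in each LPS+NMN library (2.00 ± 0.16; limma, adjusted p = 8.99e-05).

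Gipr encodes the receptor for the incretin hormone GIP. It lies at chr7:19156061-19166127 and had 2 events in each Control library and 14, 14 and 15 in LPS+NMN (2.35 ± 0.32; limma, adjusted p = 0.00676). LPS alone gave 8, 4 and 10 events and NMN alone 4, 4 and 10, all below LPS+NMN. Retained introns numbered 0 in every Control library and 7, 6 and 5 in LPS+NMN, against 1, 0 and 5 with LPS and 1, 0 and 2 with NMN. One retained intron of 1796 bases was listed in all 3 LPS+NMN libraries and in none of the other 9, and another of 128 bases in 1 LPS library besides. The gene was called on first and last exons alone and not on splicing events alone, so a call was also reached with the retained introns left out. First exons numbered 1 in each Control library and 3, 3 and 4 in LPS+NMN, and last exons 1 against 2, 2 and 1. Retained introns thus rose by more than either and were part of the difference of 2.35. The difference of LPS+NMN from LPS or from NMN alone was not tested.

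The other 6 genes with more events that were listed in both groups were Hpgds, Usp35, Srsf5, Nox3, Zfr2 and Hap1. Hpgds, the haematopoietic prostaglandin D synthase, had 4, 5 and 3 events in Control and 10, 15 and 17 in LPS+NMN (1.57 ± 0.24; limma, adjusted p = 0.0120); its retained intron of 4917 bases was in the 3 LPS+NMN libraries and in none of the other 9. Usp35, a deubiquitinase, had 5, 4 and 4 events in Control and 10, 17 and 17 in LPS+NMN (1.52 ± 0.22; limma, adjusted p = 0.00676). No event of Usp35, Zfr2 or Hap1 was in all 3 LPS+NMN and no Control libraries, so their added events were not the same in each library. Srsf5, a splicing factor of the SR family that is known to retain introns of its own transcript, had 8, 7 and 8 events in Control and 17, 14 and 17 in LPS+NMN (0.97 ± 0.16; limma, adjusted p = 0.0186). Its gained events were 2 retained introns, of 265 and 434 bases, and 3 alternative exon ends. Nox3, an NADPH oxidase that makes superoxide, had 3, 4 and 2 events against 8, 8 and 14 (1.45 ± 0.26; limma, adjusted p = 0.0412). Zfr2, a zinc finger protein, had 2, 2 and 3 against 7, 8 and 12, and Hap1, the huntingtin-associated protein 1, had 2, 2 and 2 against 7, 4 and 6 (1.57 and 1.12; limma, adjusted p = 0.0186 and 0.0216).

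**Figure D2:**
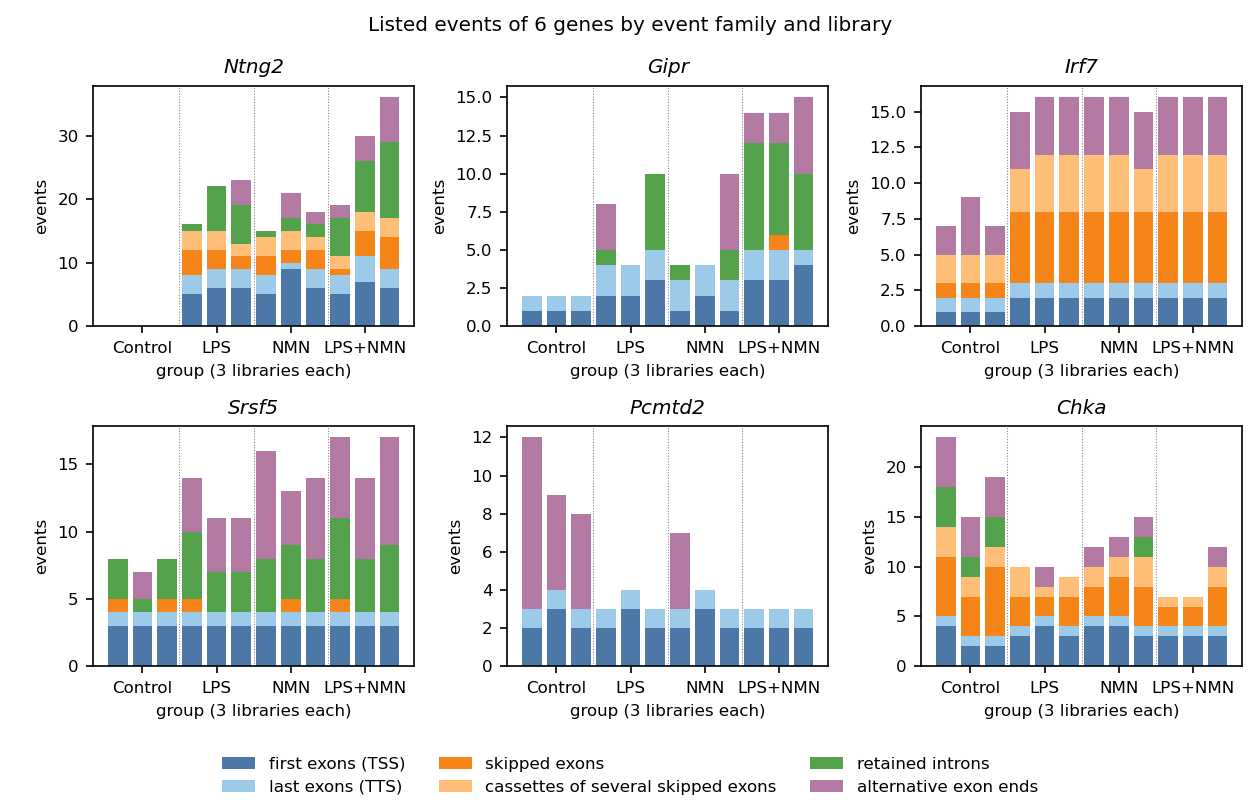
Events listed per library (vertical axis, number of events) for Ntng2, Gipr, Irf7, Srsf5, Pcmtd2 and Chka, stacked by event family, with 3 libraries per group along the horizontal axis. Retained introns of Gipr number 7, 6 and 5 in LPS+NMN and 0 in Control, and the alternative ends of Pcmtd2 number 9, 5 and 5 in Control and 0 in LPS+NMN.

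The remaining genes with more events were absent from Control and had 2 to 4 events in each LPS+NMN library. Urah, an enzyme of urate breakdown, had 4, 3 and 3 (2.11 ± 0.18; limma, adjusted p = 0.000156). Hrc, which binds calcium in the sarcoplasmic reticulum of muscle, Stfa3, a cysteine protease inhibitor, and Speer4d each had 2, 2 and 3 events (1.72; limma, adjusted p = 0.00676). At exactly 2 events in every LPS+NMN library, some of them outside the naming rule and chosen after their values were seen, were the nuclease Dnase1l3, the receptor Gpr18, the glutathione transferase Gsta1, the matrix metalloprotease Mmp3, the protease inhibitors Serpina3f and Serpina11, the anion exchanger Slc26a4 and the tyrosine kinase Srms (each 1.58; limma, adjusted p = 0.00676). The other 4 were A530064D06Rik, Gm21083, Gm28710 and Gm3776. A gene at 2 events has a first and a last exon and no splicing event, so these calls record that a transcript was listed. Which of the genes absent from Control and at 2 events in LPS+NMN passed also depended on their LPS and NMN libraries, as given below. No single event of Dnase1l3, Slc26a4, Srms, Speer4d, Gm28710 or Gm3776 was in all 3 LPS+NMN libraries, so the listed ends differed between libraries. Stfa3, Speer4d, Gsta1 and Serpina3f belong to families of near-identical copies, which makes their assignment uncertain.

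All 6 genes with fewer events can be named. Prm2 (chr16:10791380-10796134), a protamine of sperm chromatin, had 2 events in each Control library and 0 in each LPS+NMN library (-1.58 ± 0.22; limma, adjusted p = 0.00676); it had 2 in every LPS and NMN library and was the only gene absent from LPS+NMN and listed in all 9 others. Serpinb10, of the serine protease inhibitor family, is typed as a polymorphic pseudogene in GENCODE. It went from 2, 2 and 2 to 0, 0 and 0 (-1.58 ± 0.29 by limma, adjusted p = 0.0412). It was at 0 in all LPS libraries and at 2 in all NMN libraries. In the other 4 the gene stayed listed. For Chst3 and Ak8 no single event was in all 3 Control and no LPS+NMN libraries, so the events they lost were not the same in each library. Pcmtd2, of the protein carboxyl methyltransferase family, had 12, 9 and 8 events in Control and 3 in each LPS+NMN library (-1.40 ± 0.24; limma, adjusted p = 0.0292), and its alternative exon ends fell from 9, 5 and 5 to 0. Chst3 (chr10:60181532-60219260), a chondroitin sulfotransferase, had 5 events in each Control library and 2 in each LPS+NMN library (-1 ± 0.14; limma, adjusted p = 0.00676). Ak8, an adenylate kinase, went from 6, 7 and 5 to 2, 2 and 3, and Clasp2, a microtubule plus-end protein, from 7, 7 and 8 to 3, 3 and 3 (-1.07 and -1.06; limma, adjusted p = 0.0170 and 0.0207).

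Of the 39 calls, 26 held in all 6 fits that left out 1 of the compared libraries. Clasp2 and Serpinb10 lost their call in each of the 6 fits. Without Control 1, 31 of the 39 held; Ak8, Hap1, Ifi206, Nox3, Pcmtd2 and Zfr2 were lost as well. Without Control 2, 32 held, and Ak8, Hap1, Pcmtd2, Srsf5 and Zfr2 were lost as well; without Control 3, 34 held, and Hap1, Ifi206 and Nox3 were lost as well. Without LPS+NMN 1, 29 held, and Ak8, Gm21083, Gm3776, Hap1, Ifi206, Nox3, Pcmtd2 and Srsf5 were lost as well. Without LPS+NMN 2, 31 held, and Ak8, Hpgds, Ifi206, Nox3, Pcmtd2 and Zfr2 were lost as well. Without LPS+NMN 3, 27 held, and Gm21083, Gm3776, Hap1, Hpgds, Ifi206, Nox3, Pcmtd2, Srsf5, Stfa3 and Zfr2 were lost as well. With the spread estimated from the 6 compared libraries alone, 3 genes passed, Apol9b, Gipr and Ntng2, all with more events. With events listed in 1 library alone left out, 29 of the 39 held, and Ak8, Chst3, Clasp2, Dnase1l3, Gm28710, Ifit1bl1, Slc26a4, Usp35, Zbp1 and Zfr2 were lost.

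Presence alone gave a longer list. In all LPS+NMN and no Control libraries were 72 genes (0.528% of 13628), and in all Control and no LPS+NMN libraries 30 (0.22%). Of the 72, 59 never had more than 2 events, as did 29 of the 30. Besides the called genes, the 72 included Ccl8 and Ccl17, chemokines; Il10, an anti-inflammatory cytokine; Tnfsf10, the death ligand TRAIL; Camp, an antimicrobial peptide; Fpr2, a formyl peptide receptor; and the interferon-induced Gbp10, Iigp1, Ifi213, Slfn1, Trim30c and Trim34b. The 30 included C1qa, a subunit of complement C1q, Cd101, Igfbp5, Retnlg, Gli1, Pdgfc and Col5a1. These genes, other than those of the lists below, were chosen after their values were seen. Gstt1, a glutathione transferase, and Npcd were in the 3 LPS+NMN libraries and in none of the other 9, at 2 events in each. They did not pass the test (both 1.58 ± 0.38; limma, adjusted p = 0.194). Zbp1, with the same values in the compared libraries but listed in every LPS and NMN library, passed (1.58 ± 0.22; limma, adjusted p = 0.00676). Ccl8, which differed from Zbp1 only in being missing from an NMN library, did not (1.58 ± 0.39; limma, adjusted p = 0.194). Among genes with these values the call thus depended on the LPS and NMN libraries in the fit, and not on the compared libraries alone.

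The same count over all 12 libraries shows which group stood apart. Absent from 1 group and present in all 9 libraries of the others were 24 genes for Control, 2 for LPS, 1 for NMN and 1 for LPS+NMN. Among events, 104 were in the Control libraries alone and 120 in all libraries but those, whereas 40 were in the LPS+NMN libraries alone and 15 in all but those. The corresponding numbers were 58 and 20 for LPS and 47 and 14 for NMN. By these counts, more of the events separated Control from the rest than separated LPS+NMN from the rest. The events found in LPS+NMN alone included the retained introns of Gipr and Hpgds, first exons of Slfn8, Socs5, Tifa and Prkcb; first exons of Lgals9 and Pdgfa were in all libraries but those of LPS+NMN.

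Event by event, 675 of 106733 were gained (0.632%) and 624 were lost (0.585%). First exons were gained 263 times (0.685% of 38403) and lost 178 times (0.464%), and last exons 160 times (0.585% of 27341) and 127 times (0.465%). Matched by gene, start and end, the counts were 190 and 171 for first exons and 136 and 138 for last exons, so the order turned for last exons. Skipped exons went the other way, with 110 gained (0.693% of 15878) and 157 lost (0.989%). Cassettes of several skipped exons were gained 22 times (0.625% of 3522) and lost 25 times (0.71%), and alternative exon ends 92 times (0.502% of 18315) and 123 times (0.672%). Retained introns were gained 28 times (0.855% of 3274) and lost 14 times (0.428%). In the genes listed in all 6 libraries, where no gene enters or leaves, 529 of 97054 events were gained (0.545%) and 573 were lost (0.590%). There first exons kept the higher count of gains, 202 against 150, but last exons turned, with 89 gained and 105 lost; skipped exons were at 103 and 156 and retained introns at 23 and 14. When an event had to be in at least 2 of the 3 libraries of its group and in none of the other, the counts for skipped exons were 558 gained and 823 lost and for retained introns 170 and 112. Leaving out 1 library makes the rule easier to meet for its group, and the order then turned for retained introns without Control 2 (40 gained, 45 lost) and Control 3 (39 and 61) and for skipped exons without LPS+NMN 1 (263 and 254) and LPS+NMN 2 (272 and 258).

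**Figure D3:**
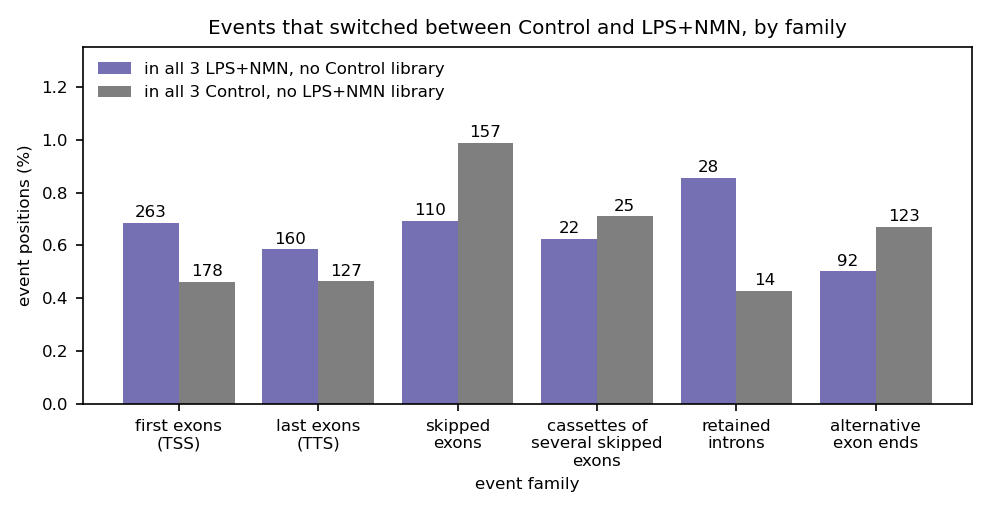
Percent of distinct event positions (vertical axis, from 0) that were in all 3 LPS+NMN and no Control libraries, or in all 3 Control and no LPS+NMN libraries, for the 6 event families, with the number of events over each bar. Retained introns (0.855% against 0.428%) and first exons (0.685% against 0.464%) have the taller LPS+NMN bar, and skipped exons (0.693% against 0.989%) the taller Control bar.

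Of the 110 gained skipped exons 12 were in genes of the type I interferon list. The interferon-related genes with a gain, besides Irf7, included Ifi44 (2 exons, of 101 and 196 bases), Gbp3 (195 and 138 bases), Dhx58 (169), Parp9 (184), Ifit3 (107), Mx1 (79) and Trim30a (64). Both Ifi44 exons were skipped in some transcripts of every treated library, and the Mx1 exon in 2 LPS, 2 NMN and 3 LPS+NMN libraries. Slamf7, a receptor of the SLAM family on immune cells, gained the skip of its exon 5 in all 9 treated libraries. The interleukin-36 genes Il36a and Il36g each gained a skip of an exon of 140 bases, and Slfn4, of the Schlafen family, one of 1040 bases. Of the 98 gained exactly skipped exons 62 matched a GENCODE M21 exon, 38 of them coding.

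Among lost skipped exons, that of Tlr4 exon 2 was in all 3 Control libraries, in 1 LPS library, and in no NMN or LPS+NMN library. That exon lies in the part of the gene that encodes the extracellular domain of the LPS receptor. Ube2n, the ubiquitin-conjugating enzyme that makes the K63-linked chains of NFkB signalling, kept the skip of its exon 3 in 1 NMN library and in no LPS or LPS+NMN library. Hnrnph1, a splicing regulator, lost the skip of its exon 10 together with 2 last exons at the same place; these 3 events were in 1 LPS and 2 NMN libraries. Ezh2, the histone methyltransferase of Polycomb repression, lost the skip of its exon 18 in LPS+NMN, while all 3 NMN libraries listed it. Nlrc5, an activator of MHC class I genes, lost the skip of its exon 8, which all 3 LPS libraries listed. These losses therefore differed between the other treated groups, and those differences were not tested. Of the 136 lost exactly skipped exons 100 matched a GENCODE exon, 69 of them coding.

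By number of switched events in genes listed in all 6 libraries, the leaders among gains were Irf7 (7 events), Slfn4 (6), and Gipr, Pilrb1, Srsf5 and Ube4a (5 each). Slfn4 had 2, 6 and 4 events in Control and 13, 12 and 14 in LPS+NMN without passing (1.57; limma, adjusted p = 0.0808), and Pilrb1, a paired immunoglobulin-like receptor, 3, 7 and 5 against 13, 10 and 13 (1.16; limma, adjusted p = 0.115). Adamts6, a secreted metalloprotease, had 5, 4 and 7 events against 13, 12 and 15 (1.20; limma, adjusted p = 0.0881). The leaders among losses were Fes (6 events), a tyrosine kinase of myeloid cells, and Cep55 and Pcmtd2 (5 each). Fes had 23, 23 and 14 events in Control and 12, 6 and 13 in LPS+NMN (-0.92; limma, adjusted p = 0.616); all 6 lost events, 3 of them retained introns, were in no treated library. Chka, choline kinase alpha, had 23, 15 and 19 against 7, 7 and 12 (-1.07; limma, adjusted p = 0.0881), and Fyn, a Src-family kinase, 11, 10 and 12 against 5, 6 and 6 (-0.85; limma, adjusted p = 0.247). In each of these genes but Pcmtd2, Irf7, Gipr and Srsf5 the switched events came without a call on the number of events.

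Exchanges of ends within a gene were few. Among genes listed in all 6 libraries, a first exon was gained and another lost on the same strand in 7 of 328 genes with a switched first exon, and a last exon in 13 of 162; in 2 and 7 further genes the gained and the lost end lay on opposite strands and are no exchange. Of the gained ends in annotated genes, 10 of 257 first exons and 13 of 153 last exons were listed on the strand opposite to the gene, as were 9 of 174 and 9 of 122 of the lost ends. Rtp4, an interferon-induced chaperone of membrane receptors, exchanged, on the plus strand, the first exon at chr16:23428669-23428899, which only the Control libraries held, for that at chr16:23427807-23427887, which all 9 treated libraries held. These positions are those of the files, whose assembly is unnamed and differs from GRCm38. Cybb, the catalytic subunit of the phagocyte NADPH oxidase, exchanged, on the minus strand, the first exon at chrX:9335445-9335563, in 0 LPS and 1 NMN libraries, for that at chrX:9336849-9337257, in 3 LPS and 2 NMN libraries. Slc3a2, which encodes the heavy chain that pairs with SLC7A11 in the cystine transporter, is on the minus strand. It gained the last exon at chr19:8684246-8685458 on that strand, in 3 LPS, 2 NMN and 3 LPS+NMN libraries. The lost event listed under its name, at chr19:8703603-8703806 in the 3 Control libraries and in no other, was on the plus strand.

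Retained introns were more numerous in LPS+NMN. The 3 LPS+NMN libraries listed 1214, 1245 and 1257 and the 3 Control libraries 1198, 1132 and 1082 (1239 ± 22.2 against 1137 ± 58.2, SD, n = 3). The groups did not overlap, and the two-sided exact permutation test gave p = 0.1, the smallest that 3 against 3 libraries allow. As a share of splicing events, that is of all events but first and last exons, retained introns made up 6.94%, 7.07% and 6.91% in LPS+NMN and 6.07%, 6.24% and 6.43% in Control. The LPS libraries lay at 6.57%, 6.24% and 6.41% and the NMN libraries at 6.52%, 6.79% and 6.93%, so that NMN reached into the range of LPS+NMN. Skipped exons made up 41.0 ± 0.603% of splicing events in LPS+NMN and 42.5 ± 0.341% in Control (SD, n = 3), also without overlap. Genes with gained retained introns, besides Gipr, Srsf5, Ntng2 and Hpgds, were Pilrb1 and its near copy Pilrb2, Ifi206, Ifi44 (252 bases), H2-T10, the RNA-binding protein gene Ewsr1 and the complement factor gene Cfb (76 bases). Lost retained introns were in Fes, Maff, Chka, Dram1 and B4galnt1, among others; these examples too were chosen after their values were seen.

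**Figure D4:**
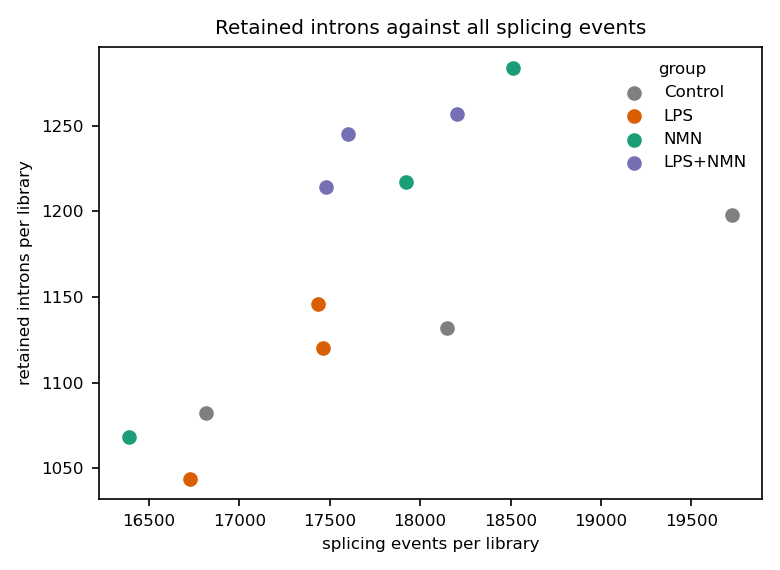
Retained introns per library (vertical axis) against all splicing events per library (horizontal axis), 1 point per library, coloured by group. The LPS+NMN points lie above the Control points at similar numbers of splicing events; the Control library with the most splicing events (19724) held 1198 retained introns, fewer than any LPS+NMN library.

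Libraries as a whole differed little. LPS+NMN libraries listed 12150 ± 39.8 genes and Control libraries 12066 ± 169 (SD, n = 3; exact permutation p = 0.5), 53057 ± 642 against 53313 ± 2380 events (exact permutation p = 0.8), and 4.37 ± 0.0386 against 4.42 ± 0.135 events per listed gene (exact permutation p = 0.6). Control 1 was the largest catalogue of the 12, and without it the difference in events turned from -256 to 981 and that in events per listed gene from -0.0505 to 0.0186. Any pair of the 12 libraries shared 52.2% to 54.7% of the events of the pair.

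The list of the type I interferon response had 75 genes. It and the lists below were chosen with earlier results of these data known, so their shares against all genes are descriptions alone. Of these 75, 73 were listed and 70 could be tested; 5 were called with more events (Apol9b, Ifi206, Ifit1bl1, Ifit3b and Zbp1), against 0.283% of all genes tested, and none with fewer. Their median difference was 0.25, against 0 over all genes tested. In 20 genes all 3 LPS+NMN libraries lay above all 3 Control libraries and in none below, where over all 13628 genes the shares were 2.2% (300 genes) and 2.12% (289 genes). The summed events of the list were 309, 330 and 319 in LPS+NMN and 237, 234 and 209 in Control, without overlap. The LPS libraries had 364, 335 and 319 and the NMN libraries 293, 333 and 338, so that all treated libraries lay above all Control libraries. Of the 572 event positions of the list, 53 were gained (9.27%) and 1 was lost (0.175%), against 0.632% and 0.585% of all events; within its genes listed in all 6 libraries 26 of 491 were gained (5.30%).

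**Figure D5:**
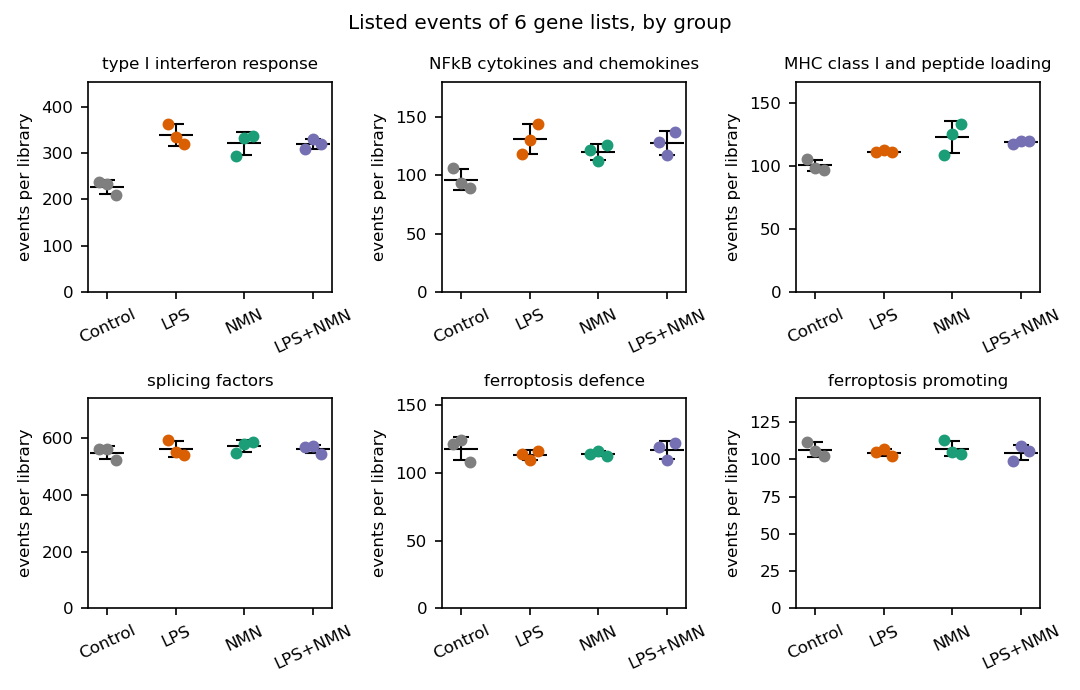
Summed events per library for 6 gene lists (1 panel each, events per library on the vertical axis), with 1 point per library, grouped as Control, LPS, NMN and LPS+NMN, and lines for the mean and SD of each group. The type I interferon panel has all LPS+NMN libraries (309 to 330) above all Control libraries (209 to 237); in the panels of ferroptosis defence and ferroptosis promoting genes the 2 groups overlap.

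Members of the list that did not pass the test nevertheless had their gains in several event families. Ifi44 had 2, 2 and 0 events in Control and 5, 5 and 7 in LPS+NMN (1.67; limma, adjusted p = 0.183), and Gbp3, a guanylate-binding GTPase, had 2, 2 and 2 against 8, 9 and 5 (1.44; limma, adjusted p = 0.194). Mx1 and Mx2, dynamin-like antiviral GTPases, had 2, 2, 0 and 2, 3, 2 events in Control and 3, 6, 3 and 4, 5, 4 in LPS+NMN (1.21 and 0.69; limma, adjusted p = 0.408 and 0.244). Dhx58, which encodes the RNA sensor LGP2, had 3, 4 and 3 against 5, 6 and 7 (0.69; limma, adjusted p = 0.194). Isg15, a ubiquitin-like modifier, had 2 events in each Control library and 3 in each LPS+NMN library (0.42; limma, adjusted p = 0.464). Ifit1, Oas3, Xaf1, Ifih1 and Rsad2 did not vary in their number of events over the 6 libraries. By family, 20 of 170 first exons (11.8%), 12 of 162 last exons (7.41%), 12 of 102 skipped exons (11.8%) and 2 of 13 retained introns of the list were gained; the 1 loss was a first exon.

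The RefSeq promoter windows (GRCm38.p6, 250 bases before to 50 after the start) were searched on both strands for the core of the interferon-stimulated response element, GAAA followed after any 2 bases by another GAAA. Of the 33 genes with more events 29 had a window, and 6 of these held the motif (20.7%): Apol9b, Ifit3b, Ifit1bl1, Ifi206, Gpr18 and Slc26a4. Over all 27025 genes with a window 1079 held it (3.99%), as did 418 of 10764 listed genes (3.88%), 35 of 391 genes with a gained event (8.95%) and 15 of 370 with a lost event (4.05%). None of the 5 windows of genes with fewer events held it. The list of interferon genes had it in 37 of 60 windows (61.7%), and 4 of the 6 called genes with the motif are in that list. TTCNNNGAA, a STAT motif, was in 8 of the 29 windows (27.6%) and in 9.55% of all; TGACNNNGC, the core of the antioxidant response element, was in 4 of 29 (13.8%) and in 14.0% of all. A match is a description of letters and not a bound site. The windows of the called genes with 2 matches each are shown with the matches in capitals; those of Apol9b overlap.
Apol9b promoter, chr15:77728822-77729121, plus strand: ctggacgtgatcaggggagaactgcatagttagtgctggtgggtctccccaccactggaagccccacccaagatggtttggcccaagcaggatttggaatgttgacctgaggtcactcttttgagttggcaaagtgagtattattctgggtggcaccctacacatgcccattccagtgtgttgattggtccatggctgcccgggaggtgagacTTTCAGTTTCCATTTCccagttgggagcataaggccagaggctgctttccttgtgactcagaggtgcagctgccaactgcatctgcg
Ifit3b promoter, chr19:34607707-34608006, plus strand: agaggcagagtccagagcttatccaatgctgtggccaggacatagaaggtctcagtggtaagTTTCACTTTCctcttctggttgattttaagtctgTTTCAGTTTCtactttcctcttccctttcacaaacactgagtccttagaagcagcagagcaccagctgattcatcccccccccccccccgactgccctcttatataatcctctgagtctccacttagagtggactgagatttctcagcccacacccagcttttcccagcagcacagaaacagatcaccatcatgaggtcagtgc

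The list of interferon factors and receptors had 1 call among 22 tested genes, Irf7, against 0.283% of all genes tested, and a median difference of -0.04. Its summed events, 110.3 ± 2.89 in LPS+NMN and 106.3 ± 4.73 in Control (SD, n = 3), overlapped. Of its 195 event positions 10 were gained (5.13%, against 0.632% of all events), 7 of them in Irf7. Of 24 MHC class I and peptide loading genes tested, 1 was called, H2-M2, and 5 lay without overlap higher, against 0.283% and 2.2% of all genes. The sums were 119.3 ± 1.15 against 100.7 ± 4.73. H2-T10 had 4, 4 and 2 events in Control and 6, 6 and 13 in LPS+NMN, and the immunoproteasome subunit Psmb9 5, 3 and 3 against 7, 8 and 7 (0.86; limma, adjusted p = 0.385). Of 195 positions of this list 8 were gained (4.10%) and 4 lost (2.05%), against 0.632% and 0.585% of all events. Of the losses 3 were skipped exons. MHC class I genes are near copies of each other, so the gene to which an event was given is uncertain.

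Of 42 NFkB cytokine and chemokine genes 32 could be tested, and 3 were called with more events, Il12b, Il36a and Mmp3, against 0.283% of all genes tested. The median difference of the tested genes was 0.19. Of the 38 listed genes 22 had a higher mean, 3 a lower mean and 13 equal means. The sums were 127.3 ± 10.02 in LPS+NMN and 96 ± 8.89 in Control (SD, n = 3). Of 211 event positions 16 were gained (7.58%, against 0.632% of all events) and none was lost, but in its genes listed in all 6 libraries the gains were 3 of 165, so most came with genes that entered. Tnf, with 2, 2 and 2 events against 3, 2 and 2 (0.14; limma, adjusted p = 0.854), Il1b, with 2, 2 and 2 against 2, 2 and 4, Il6, with 2, 3 and 3 against 3, 3 and 3, and Nos2, with 2, 2 and 2 against 2, 2 and 3, were listed in all 6 libraries. Cxcl10 had 3 events, and Ccl2, Ccl3 and Ccl4 had 2, in each of the 6. A gene already listed with its minimum of events cannot show in this measure how much of it was made.

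Of 36 Toll-like receptor and NFkB signalling genes tested none was called; the sums were 185 ± 11.4 against 165.7 ± 2.89, and Tlr3, the receptor for double-stranded RNA, had 3, 2 and 2 events against 4, 6 and 4 (0.76; limma, adjusted p = 0.229). Of 23 inflammasome and cell death genes 1 was called, Zbp1, against 0.283% of all genes tested. The sums were 100 ± 4 against 98 ± 8.19. Of 31 protease and protease inhibitor genes 3 were called with more events, Mmp3, Serpina3f and Stfa3, and 1 with fewer, Serpinb10, against 0.283% and 0.0514% of all genes tested. The median difference was 0.33, and the sums were 112.3 ± 2.31 against 96.7 ± 2.52. Mmp9, a gelatinase, had 3, 5 and 3 events in Control and 2, 2 and 2 in LPS+NMN (-0.61; limma, adjusted p = 0.385).

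None of the genes of ferroptosis was called. The list of ferroptosis defence had 26 tested genes with a median of 0. Of its 30 listed genes 12 had a higher mean, 12 a lower mean and 6 equal means, with sums of 116.7 ± 6.81 in LPS+NMN and 117.7 ± 8.50 in Control (SD, n = 3). Gpx4, the gene of the study's title, had 2, 2 and 2 events in Control and 2, 2 and 3 in LPS+NMN (0.14; limma, adjusted p = 0.854). Slc7a11, the light chain of the cystine transporter, had 14, 2 and 4 against 4, 4 and 2 (-0.53; limma, adjusted p = 0.854), and Control 1 alone was high. Aifm2, which encodes the ferroptosis suppressor FSP1, had 5, 6 and 3 against 4, 3 and 3 (-0.36; limma, adjusted p = 0.762). The list of ferroptosis promoting genes had 25 tested genes, a median of -0.05, and sums of 104.7 ± 5.13 against 106.7 ± 5.03. Acsl4, which loads polyunsaturated fatty acids into lipids, had 6, 8 and 10 events against 8, 9 and 6 (-0.05; limma, adjusted p = 1). Each of these lists gained 1 event and lost 1: the last exons listed under Slc3a2, on opposite strands, and the first exons of Cybb, both given above. None of 23 iron handling genes was called and no event of the list switched; the sums were 118.7 ± 6.81 against 110.3 ± 2.31. Tfrc, the transferrin receptor, had 3 events throughout, and Fth1, a ferritin subunit, 4, 4 and 6 against 6, 6 and 4.

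Of 27 NRF2 and glutathione genes tested, 1 was called with more events, Gsta1, against 0.283% of all genes tested. Hmox1 and Nqo1, at 2 events throughout, could not be tested. None of 16 NAD synthesis genes was called, with a median of -0.14 and sums of 68.3 ± 5.51 in LPS+NMN and 72 ± 6.93 in Control (SD, n = 3). Nampt, the enzyme that makes NMN from nicotinamide, had 6, 6 and 6 events against 6, 7 and 6 (0.06; limma, adjusted p = 0.954), and Nmnat1, which turns NMN into NAD, had 3 in every library. Of the 146 positions of this list none was gained and 3 were lost (2.05%), against 0.632% and 0.585% of all events. None of 26 NAD consumers was called, the sums being 114 ± 1 against 112.3 ± 7.02; Parp9, a partner of the interferon-induced Dtx3l, had 5, 6 and 5 events against 12, 7 and 11 (0.77; limma, adjusted p = 0.232). Sirt1 had 5, 6 and 5 against 5, 6 and 3, Parp1 4, 2 and 3 against 2, 3 and 2, and Cd38 2, 3 and 2 against 2, 2 and 2.

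Of 57 splicing factor genes, all listed in all 6 libraries, 1 was called with more events, Srsf5, against 0.283% of all genes tested. The median was 0 and the sums were 561 ± 14.9 against 547.7 ± 22.3 (SD, n = 3). Besides Srsf5, 3 genes lay without overlap, all lower in LPS+NMN, where 2.12% of all genes did: Hnrnph1 with 24 events in each Control library and 20, 20 and 21 in LPS+NMN, Mbnl1 with 17, 17 and 15 against 13, 9 and 11, and Clk4 with 17, 15 and 15 against 10, 9 and 13. Of 29 genes of disease-associated microglia and phagocytosis none was called, and the sums were 131 ± 11.3 against 133.3 ± 7.09.

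The summed events of the microglial markers were 52 ± 2.65 in LPS+NMN and 55.3 ± 4.04 in Control (SD, n = 3). C1qa had 2 events in each Control library and none in LPS+NMN, P2ry12 0, 4 and 2 against 0, 0 and 0, Cx3cr1 0, 0 and 0 against 0, 0 and 2, and Tmem119 3, 3 and 2 against 3, 3 and 2. The sums of other cell types were 9.67 ± 2.08 against 6.67 ± 1.15 for astrocytes, 11 ± 1 against 13.7 ± 2.08 for oligodendrocytes, 4 ± 0 against 2 ± 0 for neurons, 2.67 ± 1.15 against 4 ± 0 for T and B cells, and 8.33 ± 2.52 against 6 ± 2 for endothelial cells and fibroblasts. Their part in the differences above was not tested.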

How the data were processed

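The deposited files list, per the file headers, transcript events with type, gene and genome positions; there are no levels, so no depth or counting interval can be given. Tools named without a role in the submitters' processing notes are HOMER, MACS2 2.1.0 and BWA 0.7.12, with the build GRCm38. The program behind the event lists was not given in the sources used here. Event positions lie on an unnamed mouse assembly that is not GRCm38. Groups and replicate numbers came from the sample titles. Partner lines of events and repeated lines were dropped; first and last exons were matched by gene and pattern, other events by gene, start and end, with exact and approximate forms counted separately.

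Distinct events per gene and library were tested with limma 3.58.1 in R 4.3.3 (trend and robust moderation) on log2(events + 1). The model covered all 12 libraries, with 4 group means and 8 residual degrees of freedom. Genes listed in under 3 libraries (at least 1 event each) were left out, 1500 in all; 1104 did not vary and 11671 were tested, with Benjamini-Hochberg adjustment at 0.05. Library values were compared by two-sided exact permutation tests. Counts of gained and lost events carry no test. The fit was also run on simulated data, with event numbers shuffled within each gene and some genes changed by known amounts. Its outcome is not given here and is no support for the calls above. Gene positions are from GENCODE M21, which holds 13939 of the 14275 gene names. Event positions were not converted.

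The members and lists were chosen with earlier results of these data known. Named genes are up to 15 per direction ordered by difference, that passed the threshold, did not overlap, averaged at least 1 event and had no clone name; the 10 genes with most gained and most lost events; up to 4 switched events per type and direction in listed genes; up to 4 members per list; and anchors of ferroptosis, NAD and inflammation. Alternatives tried were a replicate block, the 2 groups alone, no moderation trend, a pseudocount of 0.5, at least 5 events or no filter, a covariate, subsets of event types, events of 1 library left out, other matching, and leaving out each library. Merging exact and approximate forms was added after seeing the data. The main fit did not treat the replicate numbers as pairs, and whether they pair the libraries was not settled.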

Additional observations from a re-analysis of the deposited data

How the results depend on the processing

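Catalogues hold no depth, so a gene that is missing cannot be told from one too thinly covered. The gene counts depended most on which libraries estimated the spread: in the fit on the 6 compared libraries alone, 3 genes had more and 0 fewer events. Genes with at least 5 events in 3 libraries gave 8 with more and 2 with fewer, and splicing events alone 8 and 0; fewer genes could be tested there. Genes with fewer events numbered 11 without trend and robust moderation, 10 without the filter and 3 with the number of listed genes as a covariate. The cause was not tested. With events of 1 library alone left out, 29 of the 39 calls held. Matched by start and end, last exons were gained 136 and lost 138 times.

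A replicate block in the model gave 29 genes with more and 3 with fewer events. Deviations of same-numbered libraries from their group means had correlations across genes of 0.0168, 0.00732 and 0.00354. Those of differently numbered libraries ranged from -0.0139 to 0.0065. For each LPS+NMN library the same-numbered Control library gave the highest value. All values were small, and they do not settle whether the numbers pair the libraries.

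When at least 2 of 3 libraries of a group had to list a feature, gains and losses were 200 and 140 for genes, 1256 and 1053 for first exons, 781 and 771 for last exons, 558 and 823 for skipped exons, 123 and 172 for cassettes, 170 and 112 for retained introns and 646 and 686 for alternative ends; each kept the order of the stricter counts. In genes listed in all 6 libraries gained last exons numbered 89, and exact forms alone left 8 lost retained introns.

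Leaving out 1 library gave 25 to 47 genes with more and 4 to 8 with fewer events. It loosens the all-or-none rule, and gains and losses then ranged from 101 to 124 and 53 to 78 for genes, 384 to 631 and 298 to 491 for first exons, 274 to 379 and 243 to 366 for last exons, 155 to 272 and 254 to 441 for skipped exons, 28 to 63 and 35 to 89 for cassettes, 39 to 82 and 22 to 61 for retained introns, and 142 to 290 and 182 to 369 for alternative ends. By that construction the order of gains and losses turned for first and last exons without any 1 of the Control libraries, for retained introns without Control 2 or 3, for skipped exons and cassettes without LPS+NMN 1 or 2, and for alternative ends without any 1 of the LPS+NMN libraries. The difference of LPS+NMN from Control ranged from 6.83 to 174 genes, from -1393 to 981 events and from -0.117 to 0.0186 events per listed gene; the last 2 reversed without Control 1.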
